A study of Mus musculus with 7 samples.

Results

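The comparison described here sets colon RNA of saline-treated mice killed 2 or 4 weeks after their last enema against that of saline-treated mice killed 3 days after it, with no TNBS (trinitrobenzene sulphonic acid, the hapten that induces colitis in the other arm of the study) on either side. The members are the 3 saline arrays of the 7 in the series, which stand for 2 of its 6 RNA pools. Every probe set with a single gene symbol was used, 10833 of 12488 on the array, and 4316 genes with a signal of at least 100 in the highest of the 6 pools were compared. The study used its saline pools as controls for TNBS colitis, and how far these controls differ from each other is the question addressed.

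All mice were female CD-1 outbred mice, 10 to 12 weeks old at the start of the experiment, and each received 6 enemas. RNA of 5 mice made up the week 6 saline pool, which went on 2 arrays. The later saline pool held RNA of 4 mice on 1 array, 2 mice taken 2 weeks and 2 taken 4 weeks after the enemas, so it has no single time. The TNBS pools, which received TNBS in place of saline, came from 6 mice at week 6, 4 at week 8, 5 at week 10 and 4 at week 12. Colon was taken 4 ± 0.5 cm from the anus in all groups. Mice within a pool cannot be told apart, and each saline time is 1 pool, so the saline difference has no replicate check and no p-value. The later mice were also older, and age, time since the last enema and the pool itself cannot be told apart.

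The distal colon is lined by absorptive colonocytes, which take up salt, water and short-chain fatty acids, and by goblet cells, which secrete the mucus layer. Plasma cells beneath the epithelium make immunoglobulin, much of it IgA, which the epithelial receptor Pigr carries into the lumen. Epithelial and immune cells also keep up a low tonic response to interferons, cytokines that bind cell-surface receptors and switch on a shared set of antiviral genes. Type I interferon acts through the interferon-stimulated response element in the promoters of its target genes, and interferon gamma induces the immunity-related GTPases.

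Of 10 colon epithelium markers on the array, 8 had a signal of at least 100 on all 3 saline arrays and 1 was under 50 on all 3. Of 6 small intestine markers 5 were under 50 on all 3 and 0 at least 100. Of 4 stomach markers 2 were under 50 on all 3, and 1, Tff1, was at least 100, at 332 and 383 and then 239. The summed signal of the colon epithelium markers was 18720 and 17121 on the week 6 arrays and 20484 on the later array. Signals are MAS5 values scaled by the authors to a target of 150 on each array. The spiked-in control BioB read 159 and 258 on the week 6 saline arrays and 330 on the later array. On the TNBS arrays BioB read 146 at week 6 and then 536, 217 and 160. BioC and BioDn were 1.56 and 1.55 times their week 6 saline mean on the later array, and CreX 0.988 times. Near the top of the range, the same percentile of signals was 8705 and 7724 and then 6051 in saline. The part of the control signals in the results below was not tested. For beta-actin, the signal of the 3′ probe set divided by that of the 5′ probe set, a sign of RNA integrity and labelling, was 1.14 and 1.23 on the week 6 saline arrays and 0.798 on the later array. It split the TNBS arrays in the same way, with 1.24 at week 6 and 0.801 to 0.818 later, while the Gapdh ratio was 0.869 to 1.00 on all 7. Sampling time and this ratio moved together on all 7 arrays, and their parts in the differences below cannot be told apart. Across genes, log2 signals correlated at 0.987 (Pearson's r) between both week 6 saline arrays, at 0.977 between the later saline array and each of them, and at 0.971 to 0.981 between the later saline array and the 3 later TNBS arrays. These values are across genes, which are not independent replicates.

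A floor of 50 was applied to the signals before the log2 step, and each difference is the later log2 signal minus the mean of both week 6 arrays. Later saline colon was at least 2-fold higher than week 6 saline colon in 37 genes (0.857% of the 4316) and at least 2-fold lower in 41 (0.95%), 78 genes or 1.81% together. Against each week 6 array singly, the 2-fold line was passed upward by 26 genes (0.602%) and downward by 23 (0.533%). Both arrays of the week 6 pool differed from each other at least 2-fold in 31 genes (0.718%), 16 higher on array 2 (0.371%) and 15 lower on it (0.348%). On the like basis of array against array, the later array stood 2-fold from week 6 array 1 in 55 genes upward (1.27%) and 57 downward (1.32%), and from array 2 in 50 upward (1.16%) and 44 downward (1.02%). The SD of the log2 difference over all genes was 0.37 between the pools and 0.29 between the 2 arrays of 1 pool, and the median difference was 0.01. Most of the 4316 genes thus lay within 2-fold, and the spread between the pools was wider than that between arrays of 1 pool. With values under 100 set to 100, the counts were 19 higher and 18 lower, and 23 and 24 with genes filtered on the saline pools alone. That saline filter asks for a mean log2 signal of both saline pools at 100 or more, and not for the highest pool. Just inside the 2-fold line were Suz12, a Polycomb subunit, and Calb2, calretinin, at least 2.00-fold higher and 2.00-fold lower, respectively. Just outside it were Tbc1d10a at 1.99-fold higher and Hcn3 at 1.99-fold lower.

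**Figure D1:**
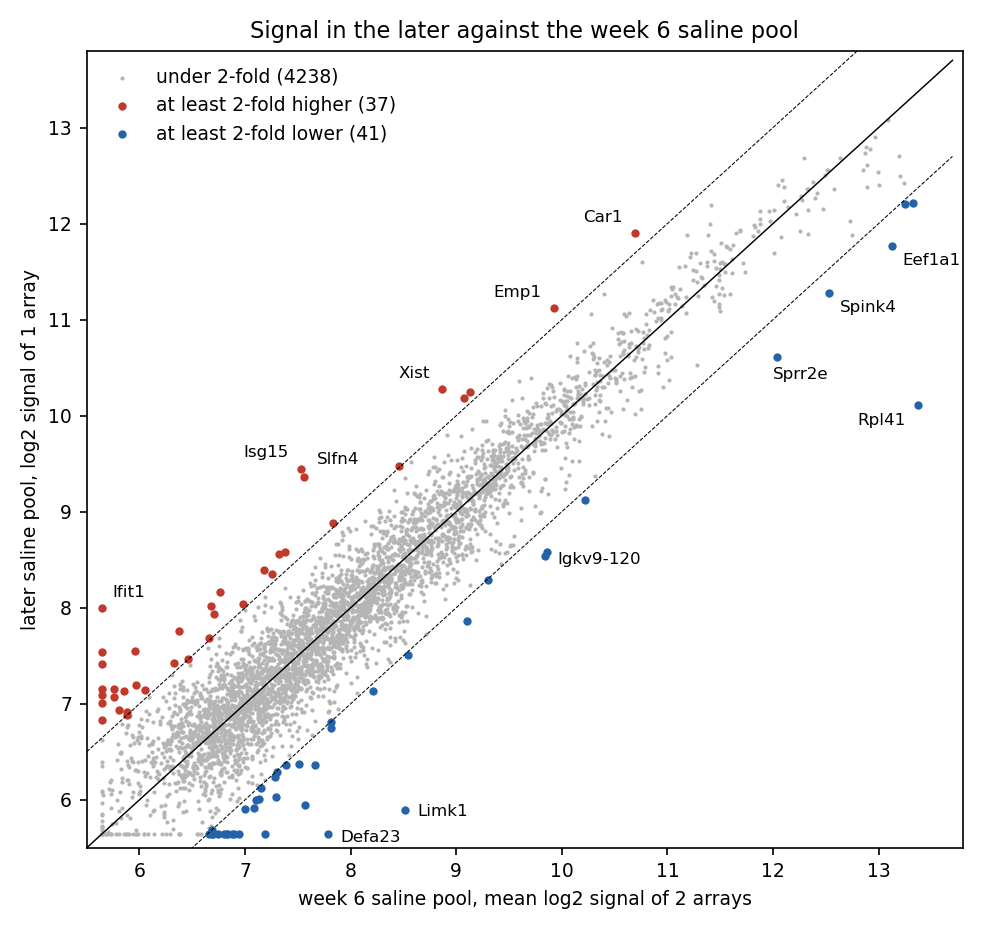
Log2 signal of each of 4316 genes in the later saline pool (vertical, 1 array) against the week 6 saline pool (horizontal, mean of 2 arrays), with the line of equality and dashed lines at 2-fold. The 37 genes at least 2-fold higher include Ifit1, Isg15 and Car1, and the 41 at least 2-fold lower include Rpl41, Limk1 and Spink4. Points on the lower and left edges are at the floor of 50.

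The largest upward differences were in antiviral genes. Ifit1, whose protein binds viral RNA that lacks host cap methylation, read 24.3 and 16.3 on the week 6 saline arrays and 256 on the later array. It was at least 5.12-fold higher, a bound because both week 6 values lay under the floor of 50. Isg15, a ubiquitin-like protein attached to other proteins during the interferon response, read 193 and 176 at week 6 and 695 later, 3.76-fold higher. Both week 6 arrays were thus low and close together for each gene, and the later array was far above them.

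Promoter sequences of 3 of these genes are shown because they are the type I interferon genes with the largest differences that hold a motif of the interferon-stimulated response element. Each line gives the 250 bases before the RefSeq start in GRCm38.p6, 5′ to 3′ on the gene's strand, with matches to the motif in capitals: GAAA, any 2 bases and GAAA again, or on the other strand TTTC, any 2 bases and TTTC. No other motif was searched.
Ifit1 (chr19:34640639-34640888, plus strand): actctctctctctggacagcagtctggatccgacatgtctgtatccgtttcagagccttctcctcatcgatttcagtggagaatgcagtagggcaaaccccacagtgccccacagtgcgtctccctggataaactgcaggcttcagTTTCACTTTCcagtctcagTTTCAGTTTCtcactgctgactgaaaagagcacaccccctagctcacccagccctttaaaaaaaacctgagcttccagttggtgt
Isg15 (chr4:156200819-156201068, minus strand): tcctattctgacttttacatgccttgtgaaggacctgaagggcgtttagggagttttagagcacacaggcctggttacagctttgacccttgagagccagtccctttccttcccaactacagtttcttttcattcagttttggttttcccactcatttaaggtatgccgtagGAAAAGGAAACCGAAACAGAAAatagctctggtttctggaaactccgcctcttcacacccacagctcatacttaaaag
Rsad2 (chr12:26456453-26456702, minus strand): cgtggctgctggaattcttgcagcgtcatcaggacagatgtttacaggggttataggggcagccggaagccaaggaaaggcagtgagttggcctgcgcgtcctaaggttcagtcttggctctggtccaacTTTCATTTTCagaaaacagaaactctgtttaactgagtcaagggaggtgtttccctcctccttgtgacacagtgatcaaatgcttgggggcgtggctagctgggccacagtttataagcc
Ifit1 had 2 separate matches, between 104 and 76 bases before the start. Isg15 had 3 overlapping matches in a run of 22 bases, and Rsad2 had 1. Over the window from 250 bases before to 50 after the start, the motif was present in 1079 of 27025 genes of the RefSeq promoter table (3.99%) and in 126 of the 3497 compared genes found there (3.6%). It was present in 6 of 30 matched genes at least 2-fold higher (20.0%) and in 0 of 26 at least 2-fold lower. The 6 were Ifit1, Isg15, Rsad2, Irgm1, Irgm2 and Prss2, a pancreatic trypsinogen. Ifit1, Rsad2, Irgm1 and Prss2 were under the floor on both week 6 saline arrays, so they passed the filter only by other pools. Ifit2 and Irf7, also at least 2-fold higher, lacked the motif. Of the 18 type I interferon genes compared and found in the table, 8 held it (44.4%). A match is a description of the letters and not a measured binding site.

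The list of type I interferon response genes had 60 symbols, 36 on the array and 23 compared. In the later saline pool 7 of the 23 were at least 2-fold higher, against 0.857% of all genes, and 1 was at least 2-fold lower. The higher count was 3 with a floor of 100 and 4 of 18 with genes filtered on the saline pools alone. Since that filter uses the mean of both saline pools, a gene low at week 6 can fail it though high later. Of the 23, 20 (87.0%) were above the week 6 mean against 51.6% of all genes. Above both week 6 arrays lay 18, against 38.5% of all genes. The median difference was 0.70 on the log2 scale, against 0.01 over all genes, and 0.37 over the 19 members above the floor on all 3 saline arrays. Since a gene low at week 6 could pass the filter by being high later, the 16 members with a week 6 saline signal of at least 100 were also taken alone. Of these 13 were higher later and 2 at least 2-fold, with a median of 0.49. Over all 3777 genes with such a week 6 signal, 1846 were higher later and 18 at least 2-fold, with a median of -0.01. The 13 members not compared had a highest signal of 30.1 to 118 on any array, and with no filter on low values the median of the list was 0.28. RNA of bulk tissue was measured, so more cells that express a gene and more of its RNA per cell cannot be told apart here or below.

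Among the effectors, Ifit2, a relative of Ifit1, read 31.1 and 41.4 at week 6 and 186 later, at least 3.72-fold higher. Rsad2, viperin, an enzyme that makes a chain-terminating nucleotide against viral RNA synthesis, read 45.9 and 46.4 and then 170, at least 3.40-fold higher. Ifi27l2a, a small membrane protein, read 71.5 and 54.2 and then 187, 3.00-fold higher. In all 3 of these genes the later array lay above both week 6 arrays by more than 2-fold. Among the regulators, Irf7, the transcription factor that amplifies interferon production, read 170 and 150 at week 6 and 376 later, 2.36-fold higher, and its second probe set differed by 0.96. Usp18, the protease that removes Isg15 from proteins and dampens receptor signalling, read 12.6 and 8.8 and then 142, at least 2.84-fold higher. Both an amplifier and a brake of the pathway were thus higher in the later pool.

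Members higher by 1.61-fold to 1.93-fold were Lgals9 and Lgals3bp, secreted lectin-related proteins, Gbp3, a guanylate-binding GTPase, Ifi35, Ifih1, the cytosolic double-stranded RNA sensor MDA5, and Trim25, a ubiquitin ligase of the RNA sensor RIG-I. The second probe set of Lgals9 differed by 0.17 against 0.95 for the one used. Ifih1 read 218 and 121 on the week 6 arrays, a difference of -0.85 between arrays of 1 pool, and 264 later. Smaller differences were measured for Adar (0.37), the RNA-editing enzyme, Irf9 (0.30), a DNA-binding factor of the type I response, Samhd1 (0.29), a nucleotide hydrolase, and Uba7 (0.22), the enzyme that activates Isg15. Trim21 (0.14), Pml (0.08) and Ly6e (0.03) were close to the week 6 mean. Below the week 6 mean were Ifi27 (-0.08), Ifitm3 (-0.35), a membrane protein that blocks viral fusion, and Tor3a. Tor3a, a torsin ATPase, read 237 and 213 at week 6 and 112 later, 2.01-fold lower. Members of the list therefore did not move together without exception.

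**Figure D2:**
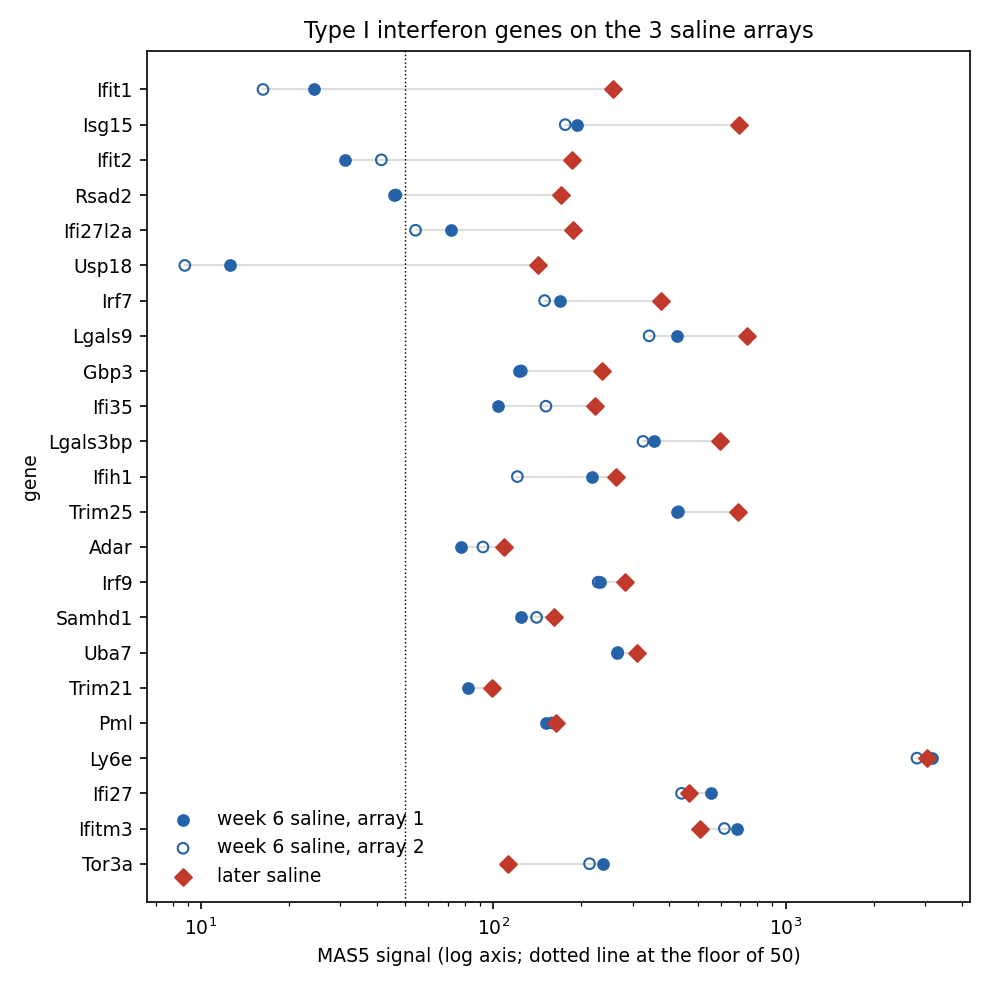
MAS5 signal (log axis) of the 23 compared type I interferon genes on the 3 saline arrays, ordered by the difference between the pools: filled and open circles are arrays 1 and 2 of the week 6 pool and diamonds the later pool. The later array lies above both week 6 arrays in 18 of 23 genes, and both week 6 values of Ifit1, Ifit2, Rsad2 and Usp18 lie under the floor of 50 (dotted).

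Outside that list, 2 Schlafen genes, members of an interferon-inducible family of lymphoid and myeloid cells, were among the largest upward differences. Slfn4 read 157 and 227 at week 6 and 659 later, 3.49-fold higher. Slfn2 read 72.0 and 95.9 and then 216, 2.60-fold higher, and its second probe set differed by 1.07. The interferon gamma list, 14 compared of 19 on the array, had a median of 0.28 and no member at least 2-fold lower. The median was 0.14 with no filter and 0.42 over the 7 genes filtered on the saline pools alone. Of the 14, 4 passed the filter only through a TNBS pool. The list had 2 members at least 2-fold higher, against 0.857% of all genes. These were Irgm2 and Irgm1, regulatory immunity-related GTPases that act on pathogen-containing vacuoles. Irgm2 read 146 and 144 at week 6 and 337 later, 2.33-fold higher, and Irgm1 49.9 and 46.7 and then 114, at least 2.28-fold higher. Of the same GTPase family, Ifi47 (1.98-fold), Iigp1 (1.70-fold) and Igtp (1.59-fold) were higher by less than 2-fold. A second Iigp1 probe set differed by -0.06. Of these 5 GTPases Irgm1 and Irgm2 passed 2-fold. The list's count of 2 was 0 on log2(value + 50) and 1 with a floor of 100 or the saline filter. It was 3 with equal array medians or quantile normalization.

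Upstream of these genes, 10 interferon ligands, receptors and kinases were compared and none differed 2-fold, as was so for most genes. Their median was 0.07, but -0.23 against week 6 array 1 alone and 0.13 against array 2. Ifngr1, a chain of the interferon gamma receptor, differed by 0.28, Ifngr2, the other chain, by -0.32 and Jak1, the kinase shared by interferon receptors, by 0.22. Ifna5, an interferon alpha gene measured by a probe set shared within its family, read 119 and 113 and then 64.5, 1.80-fold lower. The genes for antigen presentation, a further interferon target, held none 2-fold apart. MHC class I and peptide loading genes had a median of 0.14 with 12 of 16 above 0, led by the peptide transporter Tap1 at 1.49-fold higher. MHC class II genes had a median of 0.04 (0.17 against week 6 array 1 alone) with 6 of 10 above 0. The share above 0 was 51.6% over all genes.

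In the TNBS arm, which shares no array with the saline comparison, the 23 type I interferon genes had a median of 0.16 for the mean of the 3 later pools minus the week 6 pool. Above 0 were 17 of them, against 50.3% of all genes. Ifit1 read 134 in the week 6 TNBS pool, 601 at week 8, 209 at week 10 and 119 at week 12, and Isg15 302, 1194, 445 and 267. The week 8 pool was thus the highest of the 4 for both genes, and the week 12 pool was below week 6. Irgm2 read 416, 502, 330 and 189 in these 4 pools, and Iigp1 386, 219, 336 and 89.4. Of the 14 interferon gamma genes 4 passed the filter only through a TNBS pool, so no median of that list is given for this arm. The interaction of time with treatment was tested with limma over the 6 pools, and its adjusted p was 0.999 for Isg15 and Irgm2, so a difference between the arms was not shown.

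Epithelial genes differed in both directions. Car1, the carbonic anhydrase of surface colonocytes, read 1721 and 1598 at week 6 and 3833 later, 2.31-fold higher. Fabp2, an intracellular fatty acid carrier, read 539 on each week 6 array and 1159 later, 2.15-fold higher. These were the 2 of 26 compared members of the absorptive colonocyte list at least 2-fold higher, against 0.857% of all genes. Of the 26, 18 (69.2%) were above 0, against 51.6% of all genes, with a median of 0.13. Krt20, a keratin of differentiated surface cells, was 1.51-fold higher, Aqp8, a water channel of the surface epithelium, 1.46-fold and Vil1, villin of the brush border, 1.44-fold, all within 2-fold. Plac8 was 1.83-fold lower. Emp1, an epithelial membrane protein, read 1036 and 910 and then 2235, 2.30-fold higher, and Anxa8, an annexin, was 2.15-fold higher.

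Within the goblet and secretory list, 3 of 20 compared genes were at least 2-fold lower, against 0.95% of all genes, and 1 at least 2-fold higher, against 0.857%. Retnlb, a resistin-like antimicrobial protein of goblet cells, read 11194 and 9378 at week 6 and 4759 later, 2.15-fold lower. Spink4, a protease inhibitor of goblet cells, read 6139 and 5732 and then 2481, 2.39-fold lower. Fcgbp, a mucus gel protein, read 10519 and 9074 and then 4709, 2.07-fold lower, and its second probe set differed by -0.91. Against week 6 array 2 alone Retnlb differed by -0.98 and Fcgbp by -0.95, so that 1 of the 3 passed 2-fold there, and 1 passed it after quantile normalization. Creb3l1, a transcription factor of secretory cells, was 1.74-fold lower, Capn9, a calpain of gut epithelium, 1.68-fold and Tff3, the trefoil peptide of mucus, 1.52-fold. Reg3b, an antimicrobial lectin, went the other way: it read 162 and 170 and then 382, 2.30-fold higher. Over the whole list 7 of 20 members were above 0, against 51.6% of all genes, and 11 below, against 48.1%. The list's median was -0.06, and -0.33 among 16 members with a week 6 saline signal of at least 100. Retnlb and Fcgbp are among the brightest genes: of the 45 with a mean signal over the 6 pools (mean of log2 values) above 4000, 26 were lower later and 3 at least 2-fold lower, with a median of -0.08. Of the 96 genes between 2000 and 4000, which include Spink4, 69 were higher later and 3 at least 2-fold lower, with a median of 0.14.

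The crypt base protein Defa23, a Paneth cell defensin of the small intestine measured by a family probe set, read 222 and 219 at week 6 and 34.2 later, at least 4.40-fold lower. Sprr2e, a cornified envelope protein also induced in gut epithelium, read 4968 and 3550 and then 1569, 2.68-fold lower. Sprr2e was likewise measured by a family probe set. Krt6b, a keratin of stratified epithelium, read 148 and 132 and then 64.4, 2.18-fold lower. These genes were low in the later pool, but the other squamous epithelium genes did not follow: of 11 compared, none differed 2-fold and the median was -0.11. Cldn2, a pore-forming tight junction protein, was at least 2.02-fold lower.

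**Figure D3:**
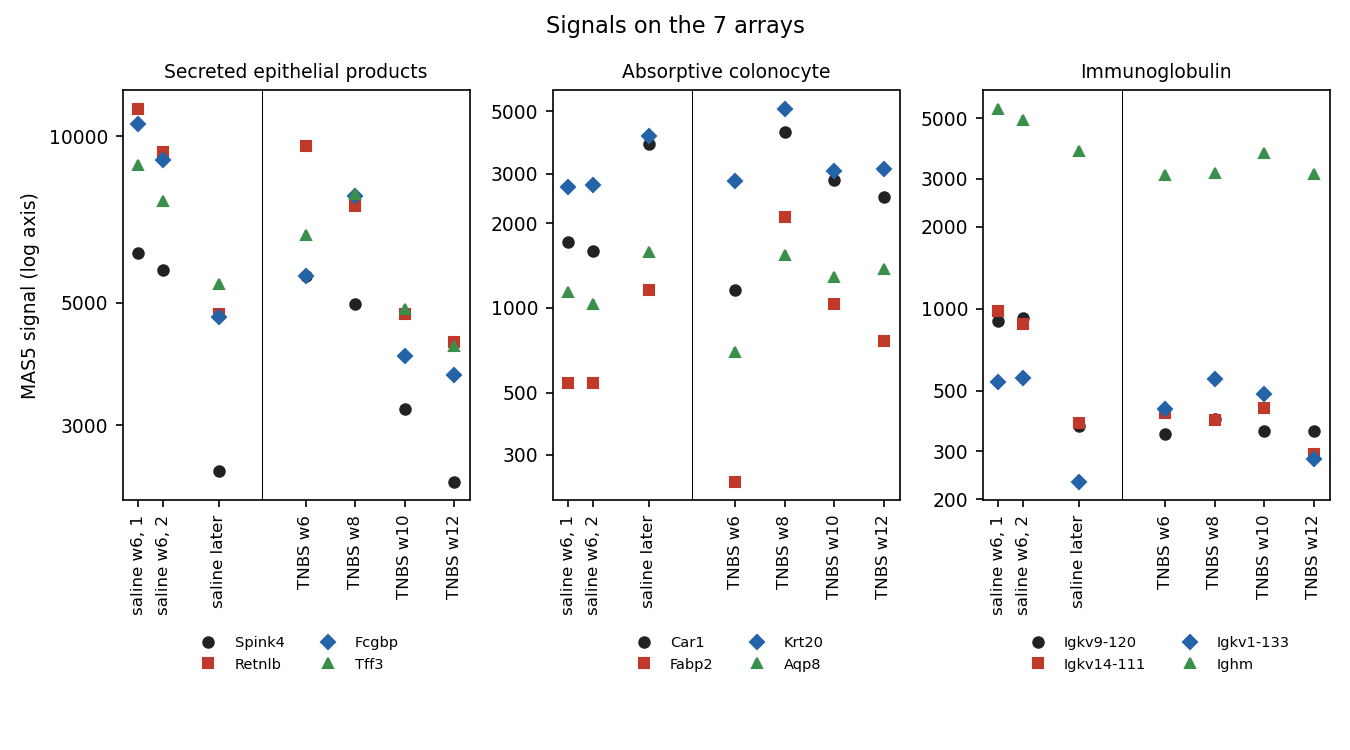
MAS5 signal (log axis) on each of the 7 arrays for 4 secreted epithelial products, 4 absorptive colonocyte genes and 4 immunoglobulin genes, with saline arrays left of the vertical line and TNBS arrays right of it. Spink4 is at 6139 and 5732 and then 2481 in saline, Car1 at 1721 and 1598 and then 3833, and Igkv9-120 between 349 and 394 on every array other than the 2 of the week 6 saline pool.

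Immunoglobulin genes were lower in the later pool. Of 22 compared variable and constant gene segments, 4 were at least 2-fold lower, against 0.95% of all genes, and none at least 2-fold higher, against 0.857%. Below the week 6 mean were 18 (81.8%), against 48.1% of all genes, with a median of -0.49. Igkv9-120, a kappa variable segment, read 901 and 927 at week 6 and 373 later, 2.45-fold lower. Igkv14-111 read 982 and 882 and then 383, 2.43-fold lower, whereas its other probe sets differed by 0.31 and -0.00. Igkv1-133 read 537 and 560 and then 232, 2.36-fold lower, and Igkv4-91 1136 and 1251 and then 559, 2.13-fold lower. All of these except Igkv1-133 were read by probe sets marked as shared within a sequence family, so each such value can stand for a group of related segments.

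Among constant regions and secretion genes, Ighm, the IgM heavy chain, read 5404 and 4926 and then 3803, 1.36-fold lower. Its other probe sets above the floor ranged from 0.17 to -1.02. Igha, the IgA heavy chain, read 7778 and 7053 and then 6051, 1.22-fold lower, and Jchain, which joins IgA and IgM units, was 1.28-fold lower. Pigr, the epithelial receptor that carries them, read 9841 and 8996 and then 5776, 1.63-fold lower. Of the 8 compared genes of immunoglobulin secretion, 7 were below 0, against 48.1% of all genes. Their median was -0.29, and -0.19 against week 6 array 2 alone. B cell genes had 6 of 10 above 0, against 51.6% of all genes. Their median was 0.06, and -0.04 with genes filtered on the saline pools alone. In the TNBS arm the segments had a median of -0.11. Igkv9-120 read 349 in the week 6 TNBS pool and 356 to 394 later, near its later saline signal, whereas Igkv1-133 read 428 at week 6 and 552 at week 8. The interaction of time with treatment had an unadjusted p of 0.00656 for Igkv9-120 in limma but an adjusted p of 0.999.

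Other immune lists held no gene at least 2-fold apart. Macrophage and monocyte genes had a median of -0.02 (-0.20 against week 6 array 1 alone), with Cx3cr1, the fractalkine receptor of resident macrophages, 1.79-fold lower and Tyrobp, a signalling adaptor, 1.67-fold higher. T and NK cell genes had a median of -0.00 over 4 compared genes and complement and acute phase genes -0.27 over 6. The mast cell and eosinophil median was -0.44 over 5, led by Mcpt1, a mucosal mast cell protease, which read 133 and 160 and then 73.9, 1.98-fold lower. Tpsb2, a mast cell tryptase of the same list, read 59.9 and 116 and then 148, 1.78-fold higher, with -0.60 for its second probe set. Of 8 neutrophil and acute inflammation genes, 5 passed the filter only through TNBS pools and were under the floor on all 3 saline arrays, so they carry no saline difference. Among these 5, S100a8 read 18.4, 33.5 and 19.2 and Cxcl5 3.8, 26.5 and 16. The other members were Saa2 (0.24), Csf3r (0.08) and Il1rn. Il1rn, the interleukin-1 receptor antagonist, was 1.76-fold lower. Among single genes, Ccr6, a chemokine receptor of B and T cells, read 128 and 147 and then 64.0, 2.15-fold lower, and Ada, adenosine deaminase, 172 and 194 and then 83.1, 2.20-fold lower. Blnk, an adaptor of B cell receptor signalling, was 2.03-fold higher.

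Collagen and matrix genes were mostly below the week 6 mean, with none 2-fold apart. Of 26 such genes 21 (80.8%) were below 0 and 19 below both week 6 arrays, against 48.1% and 36.7% of all genes, with a median of -0.29. Bgn, the proteoglycan biglycan, read 693 and 797 and then 403, 1.84-fold lower, although its second probe set differed by 0.11. Col6a2 was 1.59-fold lower, Eln, elastin, 1.48-fold and Col1a2, a chain of type I collagen, 1.46-fold. In the TNBS arm 22 of the 26 were also lower later, against 49.7% of all genes, with a median of -0.62. Smooth muscle genes were not lower as a list, with 11 of 15 above 0, against 51.6% of all genes, and a median of 0.09. Acta2, smooth muscle actin, was however 1.57-fold lower. Enteric neuron and glia genes had a median of -0.16 over 8 and endothelial genes -0.09 over 4.

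Metabolic lists shifted upward by small amounts. Over all genes 51.6% were above 0. Of 19 fatty acid oxidation and ketogenesis genes 16 (84.2%) were above 0, with a median of 0.31 and none 2-fold apart. Acadl, long-chain acyl-CoA dehydrogenase, read 54.1 and 67.1 and then 117, 1.95-fold higher, Acadm, the medium-chain enzyme, 760 and 717 and then 1148, 1.55-fold higher, and Ppara, the nuclear receptor that drives the pathway, was 1.76-fold higher. Of 38 respiratory chain and ATP synthase genes 31 (81.6%) were above 0 with a median of 0.16, and of 27 proteasome subunits 22 (81.5%) with a median of 0.24. Fatty acid oxidation and respiratory chain genes were also mostly higher later in the TNBS arm, 18 of 19 and 34 of 38, against 50.3% of all genes. Proteasome subunits were higher later in that arm in 16 of 27. Cell cycle genes had 26 of 33 above 0 in saline and a median of 0.11. In the TNBS arm they went the other way, with 28 of the 33 lower later, against 49.7% of all genes. Of these 33, 4 passed the filter only through a TNBS pool. Ndufc1, a subunit of complex I, went against its list and was 1.82-fold lower. None of these 4 medians changed sign under any setting tried, and the cell cycle median was 0.03 against week 6 array 2 alone.

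Enzymes that process drugs and lipids held further genes past 2-fold. Aldh1a1, which makes retinoic acid from retinal, read 608 and 516 at week 6 and 1213 later, 2.17-fold higher. Ces1d, a carboxylesterase, read 47.1 and 40.1 and then 137, at least 2.73-fold higher, with 0.66 for its second probe set. Ugt2b5, a glucuronosyltransferase, read 48.4 and 58.8 and then 142, at least 2.62-fold higher. The later array was above both week 6 arrays for each of these 3 enzymes. Ces1d and Ugt2b5 were measured by family probe sets. Of the 29 compared drug metabolism genes 2 were at least 2-fold higher, against 0.857% of all genes, and none 2-fold lower. Above 0 were 18, against 51.6% of all genes, with a median of 0.19. Srxn1, which repairs peroxiredoxins, was 2.34-fold higher by its brighter probe set (61.5 and 63.7, then 147) and -0.28 on the log2 scale by the other. The antioxidant list had a median of 0.10 (0.01 against week 6 array 2 alone) and the hypoxia and glycolysis list 0.21, with Hk1, hexokinase, 1.68-fold lower. Sterol and fatty acid synthesis genes had a median of 0.05, which was -0.01 against week 6 array 2 alone.

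Clock and stress-response lists held 1 gene past 2-fold. Of 11 circadian clock genes it was Usp2, a deubiquitinase with rhythmic expression. It read 62.3 and 103 on the week 6 arrays and 172 later, 2.14-fold higher, but its second probe set differed by 0.19. The core activators Arntl (0.11) and Clock (-0.02) and the kinase Csnk1d (-0.10) differed little, as did Per3 (-0.18), a repressor, Bhlhe40 (-0.16), Tef (0.27) and Timeless (0.31). Cry1, a repressor, differed by 0.36, with 0.32 between the week 6 arrays. Nr1d1, a heme-binding repressor, read 184 and 152 and then 111, 1.51-fold lower, whereas its relative Nr1d2 read 121 and 102 and then 157, 1.42-fold higher. The list's median was 0.11, and 0.02 against week 6 array 2 alone. Glucocorticoid response genes had 9 of 14 above 0, against 51.6% of all genes, and a median of 0.31. That median was 0.11 with a floor of 100 or with no filter and 0.15 with the mean of probe sets or the saline filter. The list was led by the metallothionein Mt2 (480 and 484, then 889, 1.85-fold higher) and the kinase Sgk1 (1.78-fold higher). Immediate early genes had a median of 0.18, with 12 of 17 above 0, against 51.6% of all genes, and 5 below. They ranged from -0.81 to 0.83, with Fos 1.60-fold and Jun 1.78-fold higher. Heat shock and endoplasmic reticulum chaperones each had a median of -0.06, with P4hb, protein disulphide isomerase, 1.91-fold lower.

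Markers of neighbouring tissues were examined beside these results. Prss2, a pancreatic trypsinogen, read 16.2 and 3.2 at week 6 and 129 later, at least 2.58-fold higher, while the TNBS pools read 1126, 1502, 114 and 3.2. The 13 pancreas genes compared ranged from -0.95 to 1.37 with a median of -0.13. Adipoq, the adipocyte hormone, read 45.3 and 58.9 and then 135, at least 2.48-fold higher, and the 9 adipose genes had a median of 0.32 that was 0.02 against week 6 array 2 alone. Skeletal muscle genes (5 compared), blood genes (3) and enteroendocrine genes (6) held none 2-fold apart. The part of neighbouring tissue in the results was not tested.

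Rpl41 had the largest downward difference of all compared genes. Rpl41, a very small ribosomal protein measured by a family probe set, read 11414 and 9879 at week 6 and 1109 later, 9.57-fold lower. Eef1a1, the elongation factor that brings aminoacyl-tRNA to the ribosome, read 9330 and 8602 and then 3480, 2.57-fold lower. The other ribosomal proteins did not follow Rpl41: of 23 compared, a count that includes Rpl41, only Rpl41 was at least 2-fold lower. Of the 23, 10 were above 0, against 51.6% of all genes, with a median of -0.09 that was 0.13 after quantile normalization. The 3′ beta-actin probe set itself read 8224 and 7472 and then 4620, and the 5′ set 7209 and 6050 and then 5786.

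Limk1, a kinase of actin dynamics, read 459 and 290 at week 6 and 59.6 later, 6.12-fold lower, with its other probe set under the floor on all saline arrays. Snrp1c-ps2, a pseudogene of a splicing protein measured by a family probe set, read 227 and 159 and then 61.6, 3.09-fold lower. Homer2, a synaptic scaffold protein, was 2.46-fold lower, Clgn, a testis chaperone, 2.40-fold and Iscu, the iron-sulphur cluster scaffold, 2.25-fold. Of the 41 lower genes 14 (34.1%) were read by probe sets whose identifier marks shared or less specific probes, as were 8 of the 37 higher genes (21.6%) and 12.9% of all compared genes. The reduced-rule class alone, marked r, gave 6 of the 41 lower genes, none of the 37 higher genes and 2.66% of all genes. It also gave 7 of the 31 genes 2-fold apart between arrays of 1 pool. Limk1, Clgn, Chrne and Thyn1 were among the 6 lower genes of that class. Chrne, Thyn1 and Cpsf2, bounded at 2.38-fold, 2.92-fold and 2.28-fold lower, differed 2-fold between the week 6 arrays as well. Mapk8ip1 and Tubb4a were at least 2.46-fold and 2.36-fold lower.

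Some upward differences were in RNA-related genes. Xist, the noncoding RNA of X inactivation, read 480 and 454 at week 6 and 1244 later, 2.67-fold higher. Ago2, the Argonaute nuclease of small RNA silencing, read 89.6 and 117 and then 259, 2.53-fold higher, and Xrn1, the exonuclease of decapped RNA, 51.2 and 65.2 and then 141, 2.43-fold higher. Both proteins act on cytoplasmic RNA. Splicing and RNA-binding genes had a median of 0.12 (0.22 against week 6 array 1 alone) with 26 of 36 above 0, against 51.6% of all genes. Among them Rbm39 was 1.83-fold higher and Hnrnpl 2.09-fold lower. Prpsap1, which regulates phosphoribosyl pyrophosphate synthesis, read 105 and 113 and then 286, 2.63-fold higher, and Gdpd3, a lysophospholipase D, 103 and 106 and then 245, 2.34-fold higher. Higher genes not yet named were Sgip1, Snx17, Sar1b, Sp1, St3gal1, Ctsh and Dhx36, at 2.01-fold to 2.19-fold. Lower genes not yet named were Gabbr1, Icmt, Glipr2, Ptpru, Psmg3, Pck2, Gng3, Mien1, Rag1, Fah, Ccnt1, Carm1 and Cebpd, at 2.01-fold to 2.28-fold. These 20 genes, and Anxa8, Blnk and Cldn2 above, lie outside the naming rule and were added after their values were seen to account for all 78.

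**Figure D4:**
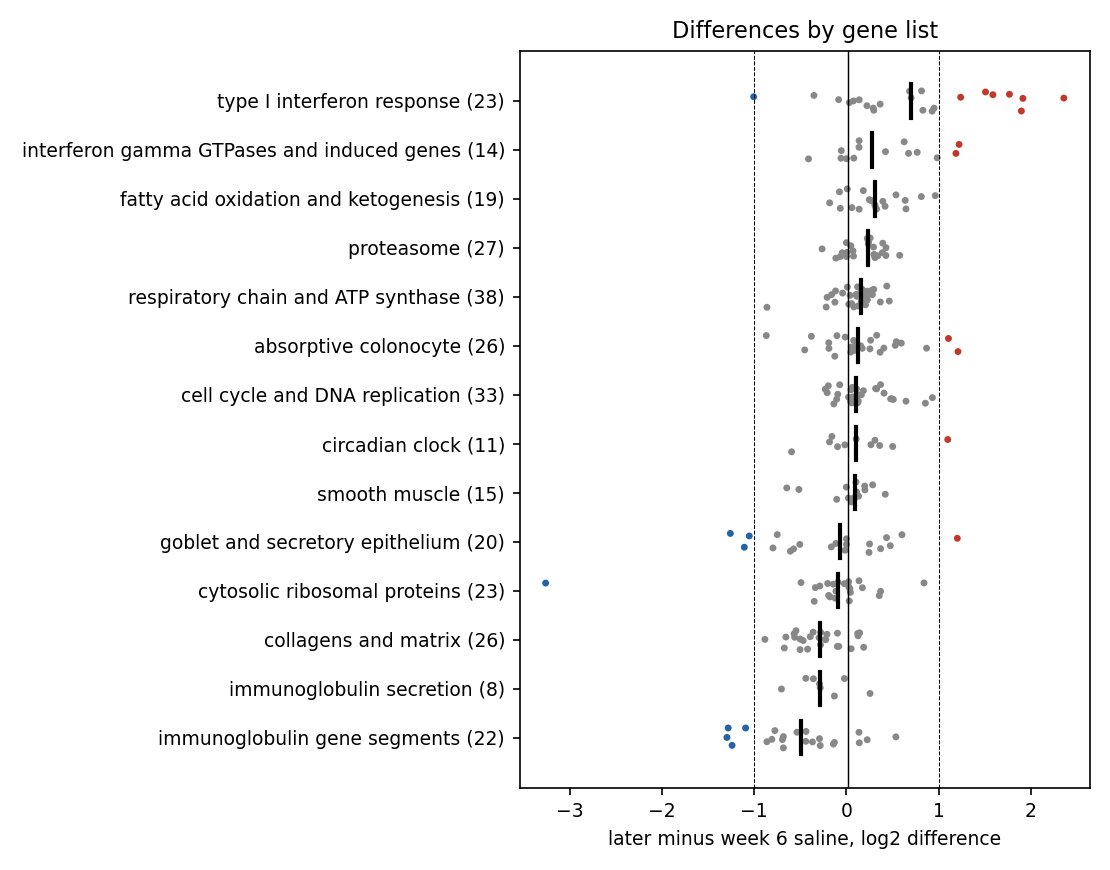
Later minus week 6 saline log2 difference of each compared member of 14 gene lists (number of members in parentheses), with the list median as a black bar, the median of all genes as a solid line and dashed lines at 2-fold. The type I interferon median is 0.70 and the immunoglobulin segment median -0.49, while the others lie between -0.29 and 0.31.

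The TNBS pools gave a later against week 6 comparison that shares no array with the saline pools. The week 6 TNBS mice were killed 3 days after their last TNBS enema and the later ones 2 to 6 weeks after it. Sampling time and the course after TNBS therefore cannot be told apart in this arm. Of the 37 genes at least 2-fold higher in later saline, 26 were also higher in the mean of the 3 later TNBS pools than in the week 6 TNBS pool, against 50.3% of all genes, and 16 were higher in every later TNBS pool, against 26.9%. Of the 41 lower genes 34 were lower in the later TNBS mean, against 49.7% of all genes, and 26 in every later TNBS pool, against 28.5%. In the TNBS mean, 6 of the 37 were at least 2-fold higher, against 1.07% of all genes, and 8 of the 41 at least 2-fold lower, against 2.27%. Without the type I interferon list the counts were 19 of 30 higher and 33 of 40 lower. Across the 4316 genes the saline and TNBS differences correlated with Pearson's r of 0.337 and Spearman's rho of 0.363, a description over genes, which share arrays and the split in the beta-actin ratio.

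Of the genes that stood apart in both arms, Aldh1a1 read 363 in the week 6 TNBS pool and 1008, 1211 and 964 later, so each of the 4 later pools of either arm was above both week 6 pools. Car1 read 1156 and then 4224, 2848 and 2472, and Fabp2 241 and then 2102, 1035 and 763. Sprr2e read 6139 and then 1921, 1228 and 1118, and Rpl41 10655 and then 4600, 2162 and 1080. All 4 later pools lay on the same side of both week 6 pools for these genes. In limma, with treatment as a covariate over the 6 pools, the later minus week 6 difference was 1.37 for Aldh1a1, 1.34 for Car1, -1.86 for Sprr2e and -2.67 for Rpl41. The adjusted p was 0.238 for each of the 4. These genes were picked by their saline difference and the fit holds the same saline pools, so its p-values are no separate support for them. No gene reached an adjusted p under 0.05: 239 genes were higher (5.54%) and 258 lower (5.98%) at an unadjusted p under 0.05. Without the week 8 TNBS pool 4 genes passed an adjusted p of 0.05 in limma, Car1 higher and Retnlb, Rpl41 and Sprr2e lower. That fit holds the saline pools as well. The TNBS pools alone gave 0 genes (142 higher, 3.29%, and 199 lower, 4.61%, unadjusted, smallest adjusted p 0.142), and the interaction of time with treatment 0 genes (31, 0.718%, and 49, 1.14%, unadjusted, smallest adjusted p 0.999). These limma p-values measure the spread between pools, in which later times count as replicates, and not between mice.

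**Figure D5:**
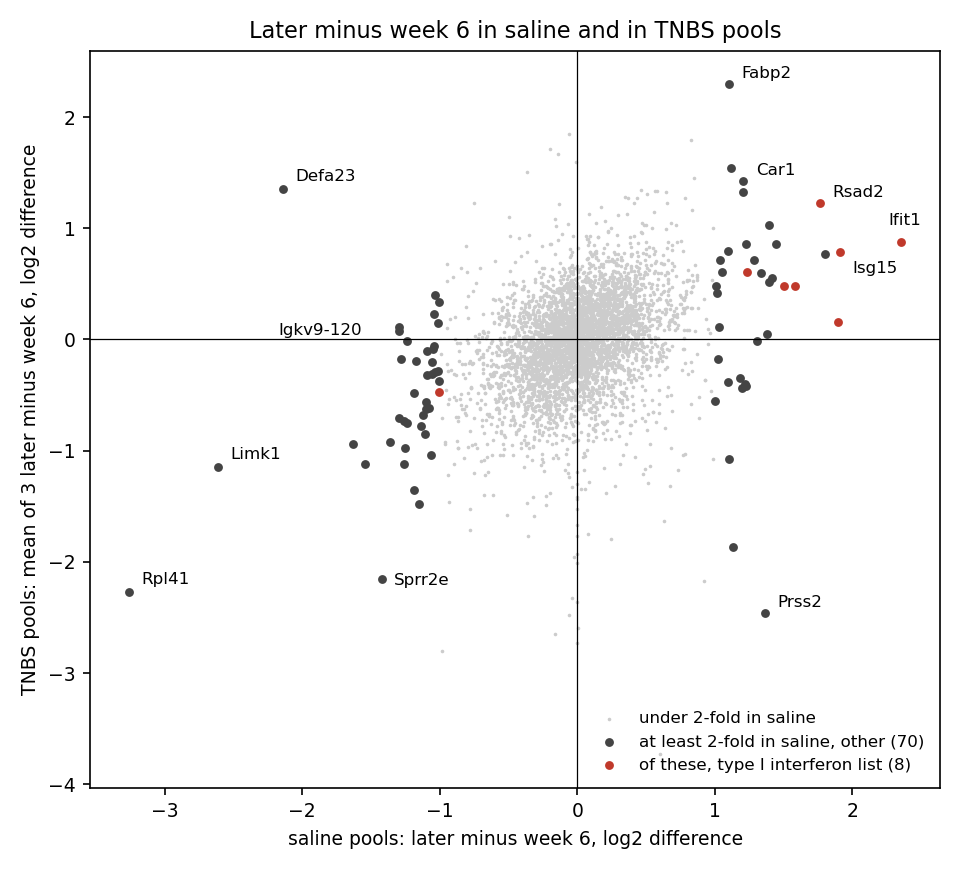
Later minus week 6 log2 difference in TNBS pools (vertical, mean of 3 later pools minus 1) against that in saline pools (horizontal) for 4316 genes, with the 78 genes at least 2-fold apart in saline drawn large and those of the type I interferon list in red. Of the 37 genes on the right 26 lie above 0 and of the 41 on the left 34 lie below, with Prss2 and Defa23 on the opposite side.

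Some genes past 2-fold in saline did not differ the same way in every TNBS pool. Defa23 read 29.7 in the week 6 TNBS pool, 664 at week 8, 62.7 at week 10 and 8.3 at week 12. Reg3b read 2095, 4017, 4589 and 201, so it was above the week 6 pool at weeks 8 and 10 and below it at week 12. Sgip1 and Anxa8, higher in later saline, had TNBS differences of -1.87 and -1.08. Gdpd3 and Irgm2 had TNBS differences of -0.42 and -0.40. For all of these the interaction had an adjusted p of 0.999 in limma, so the arms were not shown to differ.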

How the data were processed

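RNA of pooled colon was hybridised to Affymetrix mouse arrays, 7 arrays of 6 pools, with 10 µg of pooled total RNA per labelling, per the labels' protocols. The authors deposited linear signal intensities, computed with Microarray Suite 5.0 and scaled to a target of 150 per array, per the labels. Scanner files were not used here. Probe sets were named from GEO's platform annotation of 2016: 10833 had 1 gene symbol, 396 several and 1193 none, and 66 controls were left out. For each of 8251 genes 1 probe set was used, and genes under 100 in every pool were left out. Of the 4316 kept, 319 passed only through TNBS pools.

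Values under 50 were set to 50 and log2 was taken. With 1 pool a side the saline comparison has no test, and a 2-fold difference was the call, set beside the difference between both arrays of the week 6 pool. A value at the floor gives a bound. Time was also fitted with limma 3.58.1 in R 4.3.3 with Benjamini-Hochberg adjustment (a time term with treatment as covariate, the TNBS pools alone, and the interaction); the first of these was tested on simulated data. Tables were made with Python 3.11.15 and pandas 2.3.3.

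The text names the 15 largest differences each way among genes above the floor and 2-fold from each week 6 array, the 6 largest bounds each way, up to 4 leading members of each of 40 gene lists, and every compared type I interferon and clock gene. Further list members were named with their values known. The members and lists were chosen with earlier results of these data known. The number of pools limits the precision. Alternatives were other floors, folds, filters, normalizations and probe set rules, and leaving out each array.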

Additional observations from a re-analysis of the deposited data

How the results depend on the processing

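Counts of genes higher and lower in later saline were 6 and 4 at 3-fold and 219 and 217 at 1.5-fold, 19 and 18 with a floor of 100, 18 and 17 on log2(value + 50) without a floor, and 23 and 24 filtered on the saline pools alone. Equal array medians, quantile normalization, a floor of 25, no filter, the mean of probe sets and leaving out either week 6 array kept both counts within 1.5 times. The type I interferon median of 0.70 was 0.68 with a floor of 100, 0.63 on log2(value + 50), 0.28 with no filter (34 genes), 0.73 with equal medians and 0.72 after quantile normalization, and 0.67 to 0.69 against either week 6 array alone. Of 42 genes named by size, 16 were 2-fold apart the same way under every setting and 0 reversed.

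In limma the fit of both arms called 1 gene higher and 3 lower without the week 8 TNBS pool. Among the TNBS pools 130 genes were lower with a floor of 100, and 1 higher and 172 lower with no filter. The interaction gave 61 and 124 with a floor of 100, and 121 and 212 with no filter. Of these calls, 97 of 130, 141 of 173, 163 of 185 and 310 of 333 had no spread among the later TNBS pools, all at the floor. Other settings of the limma fits called 0 genes.

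Medians of other lists also moved with the setting: that of pancreas genes was -0.35 with the saline filter and -0.04 against week 6 array 1 alone, that of mast cell genes -0.16 and of complement genes -0.13 with no filter. The cause was not tested.

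No paired analysis was possible because the labels number replicates only within the week 6 saline pool. Each saline time is 1 pool, so differences between mice were not measured, and differences of signals under 50 have no value.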
